A study of Triticum aestivum with 18 samples.

Results

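Unstressed root apices of the wheat-rye addition line 3R were compared with those of the bread wheat cultivar Chinese Spring (CS), using the 3 control samples of each line, 6 of the 18 samples of the series. The samples were chosen by their titles alone. An addition line carries the complete wheat genome plus 1 added pair of rye (Secale cereale) chromosomes, here the pair 3R, and the labels do not say which wheat cultivar gave the rest of the genome. The 3R control roots and the CS control roots had the same age, 5 days, and spent the last 24 h in fresh nutrient solution at pH 4.0 without aluminium (Al). Both groups therefore grew in acid solution. The control roots of a second addition line, 6R (3 samples), and the Al-treated roots of 3R and CS (200 µM AlCl3 for 24 h, 3 samples each) were used where they bear on the same difference. Each sample was RNA of 9 root tips of 1 cm, and the labels call the samples of a group biological replicates. Each addition is represented by 1 line, so the added chromosome pair and other differences between that line and CS cannot be told apart. Because whole tips were extracted, fewer cells of a type and less RNA per cell cannot be told apart either.

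Rye chromosomes have long been added to wheat as a source of traits that wheat lacks, and rye tolerates Al and acid soil better than most wheats. Wheat is a hexaploid, so a probe may report several similar gene copies at once, and the rye copy as well. Of the genes that the array annotation names, 3 recur below: dehydrins such as rab protect cell components when water is short and are induced by abscisic acid, small heat shock proteins such as hsp16.9A hold unfolding proteins in solution, and deoxymugineic acid synthase (TaDMAS1) makes the compound that grass roots release to take up iron.

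The values are log2 intensities of 45220 probe rows, the lowest at 5.62, and 37.6% of the rows had a mean under 6.3, which is close to the lowest value of the table. A value near this floor cannot fall much further, so differences that start or end there are compressed. The median of a sample was 7.09 in 3R, 7.22 in 6R and 7.33 in CS control roots. Within a line, control and Al-treated samples together, the sorted values of samples differed by at most 0.00641 in 3R and 0.00556 in CS. Averaged over these samples of each line, the sorted values of 3R and CS differed by up to 0.355. The lines thus look normalised apart, and the differences between unstressed 3R and CS roots are given for the deposited values and, where called, also after quantile normalisation across all 18 samples. Other values are on the deposited scale unless said otherwise. Correlations over all probes were 0.960 to 0.980 between 3R control samples, 0.941 to 0.975 between CS control samples, and 0.939 to 0.973 across the lines. Replicates 1 and 2 of 3R and CS lay on separate slides, as inferred from the scanner files named in the labels, and replicate 3 of all lines shared slide 3. Line and slide can therefore be told apart only through replicate 3.

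Of the marker lists for other tissues, the seed proteins had a median level of 6.05 in 3R and 6.08 in CS, near the floor, over 30 probes. The histones, which mark dividing cells, had a median level of 9.54 in 3R and 9.41 in CS over 6 probes. That median falls between bright probes and probes at the floor. H2A-2 read 13.48 in 3R and 13.01 in CS and wcH2B-8 13.04 and 12.77, whereas H2A-9 read 5.97 and 6.05 and H2A-3 5.95 and 5.93. The photosynthesis genes had a median level of 9.17 in 3R and 8.99 in CS over 33 probes. The lists hold no root-specific gene, and no row is annotated as rye, so neither the root label nor the added pair was checked against a gene of its own.

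On the deposited values and after quantile normalisation, most of the probes called between the unstressed lines were lower in 3R. With limma on the deposited values, 1297 probes (2.87% of all rows) passed an adjusted p of 0.05 (Benjamini-Hochberg over all rows), of which 94 (0.208%) were higher and 1203 (2.66%) lower in 3R than in CS. After quantile normalisation across the 18 samples 698 probes (1.54%) passed, 203 (0.449%) higher and 495 (1.09%) lower. The share of lower calls was thus 92.8% on the deposited values and 70.9% after quantile normalisation. With only the median of each sample subtracted, 2512 probes passed, 1745 higher and 767 lower, a share of 30.5% lower, so the balance of directions rests on the scaling.

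The median difference over all rows, 3R minus CS, was -0.08 on the deposited values, 0.01 after quantile normalisation and 0.16 after subtracting medians. It varied with brightness: on the deposited values it was -0.03 for probes with a mean under 6.3, -0.30 between 8 and 10, and -0.09 at 12 and above. After quantile normalisation the same bins lay at 0.01, 0.03 and 0.03. Subtracting the medians lifted the dimmest probes to 0.21 and left those between 8 and 10 at -0.06.

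**Figure D1:**
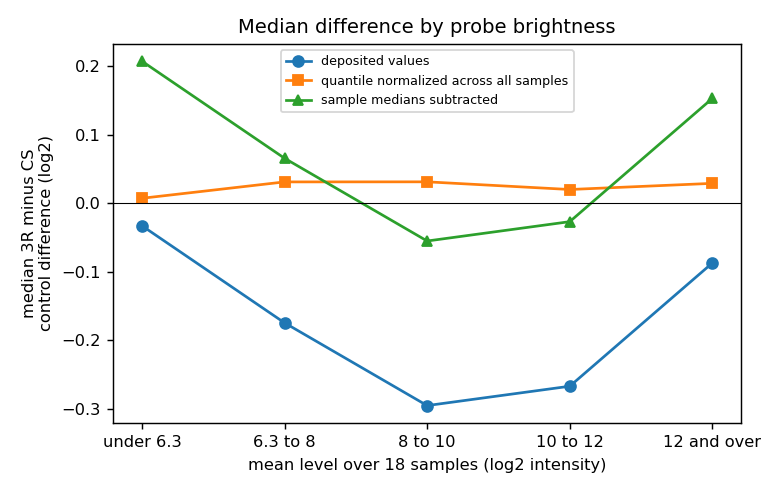
Median difference in log2 intensity, 3R control minus CS control, of all 45220 probe rows in bins of mean log2 intensity (x axis), for the deposited values, after quantile normalisation across all 18 samples, and with each sample's median subtracted. On the deposited values the bin from 8 to 10 lies at -0.30, and after quantile normalisation every bin lies between 0.01 and 0.03.

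Slide and replicate number narrowed the calls. With slide as a fixed block, 283 probes (0.626%) passed, 32 higher (0.0708%) and 251 lower (0.555%), of which 261 were also called in the same direction without it. With both quantile normalisation and the slide block 212 passed, and 173 of them were called the same way on the deposited values without the block. With the replicate number as a block, which uses the 6 control samples as 3 pairs of the same dye, 27 probes passed (0.0597%), all lower in 3R and all also called without the block. None was higher by that limma fit, in which 897 probes that were higher in 3R had an unadjusted p under 0.05. Leaving out 3R replicate 2 gave 799 calls, 52 of them higher, and leaving out 3R replicate 3 gave 821 calls. Without CS replicate 1 the higher calls numbered 60.

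To describe probes called under more than 1 scaling, those were kept that passed on the deposited values and after quantile normalisation, in the same direction. The 3 samples of each line also had not to overlap on the deposited values. Values with medians subtracted were not part of this rule. Of all rows, 2.19% had all 3R samples above all CS samples and 13.5% had them below on the deposited values, and 6.03% and 6.25% did after quantile normalisation. All conditions together held for 579 probes (1.28%), 89 higher (0.197%) and 490 lower (1.08%) in 3R. Kept probes had to be among the 94 higher and 1203 lower calls on the deposited values, so this balance also rests on the scaling. The same control values chose the probes, so the figures that follow describe them and test nothing. The higher probes had a median log2 intensity of 8.61 in 3R, 7.49 in 6R and 7.07 in CS. The lower probes had a median of 6.59 in 3R, 8.96 in 6R and 9.27 in CS. The median difference was 1.28 on the log2 scale (2.43-fold) for the higher probes and -2.03 (4.08-fold) for the lower ones, with sizes of 0.33 to 3.96 and 0.56 to 7.83. Differences above 4 on the log2 scale were found in 0 of the higher and 45 of the lower probes. With slide as a fixed block in both fits the kept probes numbered 172.

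**Figure D2:**
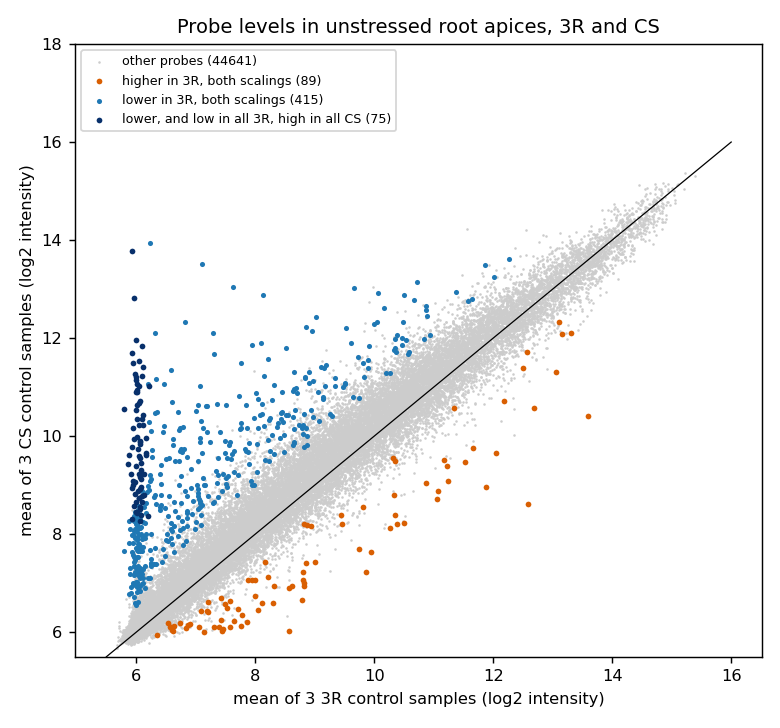
Mean log2 intensity of each of the 45220 probe rows in 3R control roots (x axis) and CS control roots (y axis, n = 3 samples each). The 89 higher probes lie to the right of the diagonal, and the lower ones lie above it: 415 ordinary ones and 75 that were under 6.3 in every 3R sample and above 8 in every CS sample.

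In all, 996 rows carry a gene symbol, and 15 of them passed on the deposited values (1.51%, against 2.87% of all rows), 4 higher and 11 lower. Of these, 8 (0.803%) met the rule above under both scalings, 4 in each direction. Only TaDMAS1, hsp16.9A and rab among them have a descriptive name. The other 5 carry a LOC number, for which the tables give no function, and the remaining 7 called rows, all LOC numbers and lower, passed on the deposited values and not after quantile normalisation.

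TaDMAS1, the last enzyme of the pathway to the iron-chelating phytosiderophore deoxymugineic acid, was higher in 3R than in CS. Its log2 intensity at probe 41405 was 12.03, 11.29 and 11.68 in 3R, 10.91, 11.90 and 12.35 in 6R, and 10.03, 8.86 and 10.38 in CS. Every 3R sample lay above every CS sample, and the 6R samples spread over and around the 3R range. 3R differed from CS by 1.91 ± 0.40 (SE, n = 3 each), 3.76-fold, with an adjusted p of 0.021 in limma, and 2.20 with an adjusted p of 0.014 after quantile normalisation. It was 1.60 with an adjusted p of 0.40 with slide as a block, and its adjusted p was 0.14 with the replicate block. Without 3R replicate 1 or 2, or CS replicate 1 or 2, the limma adjusted p lay between 0.050 and 0.074, not under the threshold in any of them. In the replicate 3 samples, which shared a slide, the difference was 1.30.

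A second TaDMAS1 probe, 18395, read 12.59, 11.61 and 12.18 in 3R and 11.09, 10.47 and 11.53 in CS. Its samples did not overlap either, and its difference of 1.09 had an adjusted p of 0.16 in limma. Between 3R and 6R the first probe differed by -0.05 (adjusted p = 1.00 in limma), and between 6R and CS by 1.96 (adjusted p = 0.12). These comparisons share the 3R and the CS control samples with the comparison of 3R and CS.

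hsp16.9A, a small heat shock protein, was lower in 3R at 1 of its 3 probes. Probe 10756 read 6.71, 6.89 and 6.95 in 3R, 7.42, 8.51 and 8.01 in 6R, and 8.11, 7.83 and 8.57 in CS. All 3R samples lay below all samples of the other lines, and those of 6R and CS overlapped. 3R differed from CS by -1.32 ± 0.22 (SE, n = 3 each), 2.50-fold, with an adjusted p of 0.0050 in limma. It was -1.06 after quantile normalisation (adjusted p = 0.026) and -1.55 with slide as a block (adjusted p = 0.084), and the adjusted p was 0.13 with the replicate block. On slide 3 the difference of the replicate 3 samples was -1.62. The other probes, 31293 and 6378, differed by -0.28 and -0.22 with adjusted p of 0.78 and 0.66 in limma, and probe 6378 stood at 0.01 after quantile normalisation.

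rab, a dehydrin, was close to the floor in 3R and slightly above it in CS. At probe 33139 the values were 6.13, 6.13 and 6.05 in 3R, 6.06, 6.34 and 6.32 in 6R, and 6.81, 6.98 and 7.15 in CS. The 3R and 6R samples overlapped, and both lay below all CS samples. 3R differed from CS by -0.88 ± 0.16 (SE, n = 3 each), 1.84-fold, with an adjusted p of 0.0076 in limma and 0.028 after quantile normalisation (-0.76). With slide as a block it was -0.94 (adjusted p = 0.14), the replicate block gave an adjusted p of 0.14, and the replicate 3 samples on slide 3 differed by -1.10. The other rab probe, 893, was near the floor in both lines and differed by 0.04 (adjusted p = 0.89 in limma). In Al-treated roots the same probe 33139 read 6.24, 6.40 and 6.16 in 3R and 10.45, 10.72 and 10.71 in CS, a difference of -4.36 ± 0.16 (adjusted p = 1.1e-08 in limma). The difference between the lines was therefore small in unstressed roots and 3.48 larger on the log2 scale under Al, a change tested within arrays in limma (-3.48 ± 0.15, adjusted p = 0.00028).

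**Figure D3:**
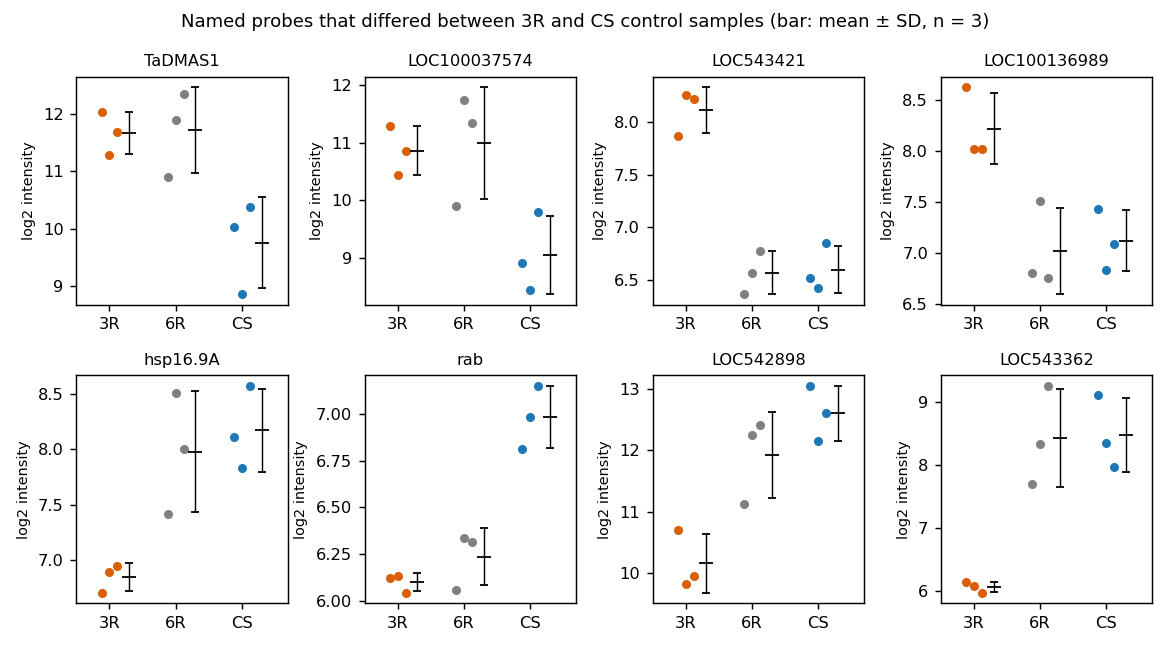
Log2 intensity of each control sample (points) with the mean and SD (n = 3) for the 8 probes with a gene symbol that differed between 3R and CS under both scalings, with 3R, 6R and CS from left to right. For each of these probes the 3R and CS samples do not overlap, and rab, TaDMAS1 and LOC100037574 have 6R samples within or around the 3R range.

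Among the symbols that are LOC numbers, 3 were higher in 3R. LOC543421, at probe 8710, read 7.87, 8.26 and 8.22 in 3R, 6.37, 6.56 and 6.78 in 6R, and 6.52, 6.43 and 6.85 in CS. The 3R samples lay above all 6 others, which overlapped among themselves. Against CS, the difference was 1.52 ± 0.15 (SE, n = 3 each), 2.86-fold, with an adjusted p of 5.8e-05 in limma, 1.76 after quantile normalisation, and 1.44 with slide as a block (adjusted p = 0.013). The replicate block gave an adjusted p of 0.11.

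LOC100136989, at probe 12995, read 8.63, 8.02 and 8.02 in 3R, 6.80, 7.51 and 6.75 in 6R, and 7.44, 6.84 and 7.09 in CS. Its 3R samples again lay above all others. 3R minus CS was 1.10 ± 0.22 (adjusted p = 0.019 in limma) and 1.36 after quantile normalisation (adjusted p = 0.0063). The call was lost with slide as a block (0.88, adjusted p = 0.32), with the replicate block (adjusted p = 0.11), and without 3R replicate 1 or 2 or CS replicate 2 (adjusted p of 0.057, 0.051 and 0.066).

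LOC100037574, at probe 3926, read 11.30, 10.44 and 10.86 in 3R, 9.90, 11.74 and 11.35 in 6R, and 8.92, 8.44 and 9.79 in CS. As with TaDMAS1, the 6R samples lay around those of 3R and above all CS samples. 3R minus CS was 1.81 ± 0.44 (adjusted p = 0.045 in limma) and 2.12 after quantile normalisation (adjusted p = 0.030). Its adjusted p was 0.54 with slide as a block (1.40), 0.17 with the replicate block, and between 0.054 and 0.15 without 3R replicate 1 or 2 or CS replicate 1 or 3.

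Lower in 3R were LOC542898 and LOC543362. LOC542898, at probe 32896, read 10.70, 9.82 and 9.95 in 3R, 11.12, 12.24 and 12.42 in 6R, and 13.05, 12.16 and 12.61 in CS. The 3R samples were below all others, and 6R overlapped with CS. Against CS, the difference was -2.45 ± 0.26 (SE, n = 3 each), 5.45-fold, with an adjusted p of 0.00015 in limma, -2.19 after quantile normalisation, and -2.33 with slide as a block (adjusted p = 0.031). The replicate block gave an adjusted p of 0.056, and the other probe of LOC542898 differed by -0.51 (adjusted p = 0.33 in limma).

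LOC543362, at probe 39540, read 6.13, 6.07 and 5.97 in 3R, 7.70, 8.33 and 9.26 in 6R, and 9.11, 8.35 and 7.97 in CS. It was at the floor in every 3R sample and above it in every sample of the other lines. The difference between 3R and CS was -2.42 ± 0.41 (adjusted p = 0.0062 in limma), -2.24 after quantile normalisation, and -1.52 with slide as a block (adjusted p = 0.36). The replicate block gave an adjusted p of 0.11.

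The largest differences were in probes without a name in the annotation. Among the higher ones, probe 37593 read 12.45, 12.93 and 12.38 in 3R, 11.29, 10.77 and 12.40 in 6R, and 7.81, 9.19 and 8.86 in CS. The 3R samples lay more than 3 log2 units above the highest CS sample, and 6R reached into the 3R range. The difference between 3R and CS was 3.96 ± 0.48 (15.6-fold, adjusted p = 0.00047 in limma), 4.20 after quantile normalisation and 4.35 with slide as a block (adjusted p = 0.014). Probe 11540 read 13.21, 14.51 and 13.06 in 3R, 12.34, 11.36 and 11.01 in 6R, and 9.86, 11.82 and 9.56 in CS, with 3R above all others. The difference between 3R and CS was 3.18 ± 0.39 (9.07-fold, adjusted p = 0.00047 in limma), 3.36 after quantile normalisation and 3.58 with slide as a block (adjusted p = 0.0045). With the replicate block the adjusted p was 0.081 for probe 37593 and 0.075 for probe 11540.

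Among the lower ones, probe 11996 read 5.98, 5.91 and 5.92 in 3R, 13.30, 13.64 and 13.32 in 6R, and 14.34, 13.16 and 13.81 in CS. It was bright in both other lines and at the floor in each 3R sample. The difference between 3R and CS was -7.83 ± 0.60 (228-fold, adjusted p = 1.1e-05 in limma), -7.79 after quantile normalisation, and it passed with slide as a block (adjusted p = 0.0022) and with the replicate block (adjusted p = 0.037). Probe 21650 read 6.44, 6.12 and 6.12 in 3R, 14.69, 13.34 and 13.82 in 6R, and 13.94, 13.92 and 13.98 in CS. Its difference between 3R and CS was -7.72 ± 0.35 (210-fold, adjusted p = 7.6e-08 in limma), -7.67 after quantile normalisation, and it also passed with slide as a block (adjusted p = 9.0e-05) and with the replicate block (adjusted p = 0.031). Because 3R stood at or near the floor, these folds are those of the deposited values and limited by it.

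Probe 11996 belongs to a wider group that was near the floor in 3R alone. Probe 21650 does not, since 1 of its 3R samples was above 6.3. In 75 probes every 3R control sample was under 6.3 and every CS control sample above 8, whereas the converse held for 1 probe. The limits were chosen after values were seen. The same count gave 71 probes near the floor in 3R and above 8 in 6R against 2 the other way, and 1 probe near the floor in 6R and above 8 in CS against 0 the other way. All 75 were called lower and met the rule under both scalings, and 61 passed with slide as a block. The same control values chose these probes, so a lower value without overlap was built in, and these counts test nothing. None of the 75 has a gene symbol, so no function can be given for them.

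Over the 75 probes the median of a sample was 6.04, 6.05 and 6.04 in 3R, 9.33, 9.53 and 9.49 in 6R, and 9.75, 9.64 and 9.68 in CS control roots. The lowest value of any 6R control sample was 6.73, and in 64 of the 75 probes all 6R control samples were above 8. The differences between 3R and CS were 2.16 to 7.83 in size, with a median of -3.70 (13.0-fold), and on slide 3 the replicate 3 samples differed by a median of -3.66. In the Al-treated roots, which are other samples on the same arrays, all 3R samples were under 6.3 in 68 of the 75 probes, and the highest 3R value of any of them was 6.70. CS was above 8 in all Al samples for 62, and 72 were called lower in 3R (5.34% of all rows were called lower in that comparison). With limits of 6.3 and 9 the count was 39 in place of 75, and on quantile-normalised values it was 60.

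**Figure D4:**
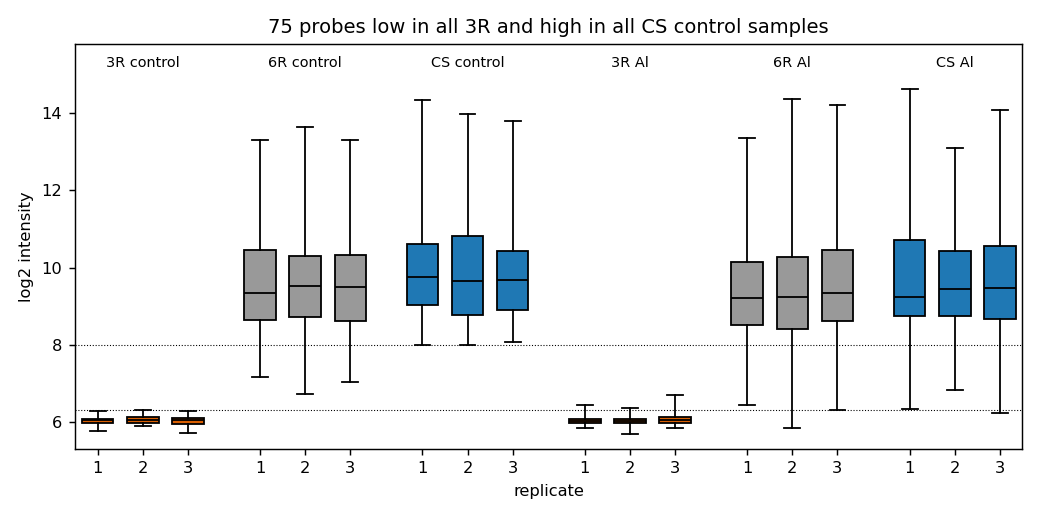
Log2 intensity in each of the 18 samples of the 75 probes under 6.3 in every 3R control sample and above 8 in every CS control sample, as boxes (quartiles and median) with whiskers to the lowest and highest probe, in the order 3R, 6R, CS. The sample medians are 6.01 to 6.05 in all 3R samples, with and without Al, and 9.21 to 9.75 in all 6R and CS samples.

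The probe with the converse pattern, 554, read 8.70, 8.25 and 8.75 in 3R, 6.13, 6.00 and 6.16 in 6R, and 6.00, 6.15 and 5.92 in CS. It was above 8 in 3R alone and at the floor elsewhere. The difference between 3R and CS was 2.54 ± 0.21 (SE, n = 3 each), 5.83-fold, with an adjusted p of 1.8e-05 in limma, 2.73 after quantile normalisation and 2.63 with slide as a block (adjusted p = 0.0042). The replicate block gave an adjusted p of 0.085. In Al-treated roots it differed by 2.36 (adjusted p = 1.8e-05 in limma). It has no symbol, and it was chosen after its values were seen.

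The difference between the lines was measured a second time in the Al-treated roots, which share arrays and slides with the control roots but no sample. There 2883 probes passed (6.38%), 468 higher (1.03%) and 2415 lower (5.34%) in 3R than in CS, and 1835 (4.06%) after quantile normalisation, 781 higher (1.73%) and 1054 lower (2.33%). Of the 490 probes lower in unstressed 3R roots, 450 were called lower under Al and 484 had a difference below 0, with a median of -1.90. Of the 89 higher probes, 56 were called higher under Al and 87 had a difference above 0, with a median of 0.94. None was called in the opposite direction. After quantile normalisation the counts were 414 of 490 and 66 of 89. The same arrays and slides carried these samples, so the part of the array or slide was not tested by this comparison.

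**Figure D5:**
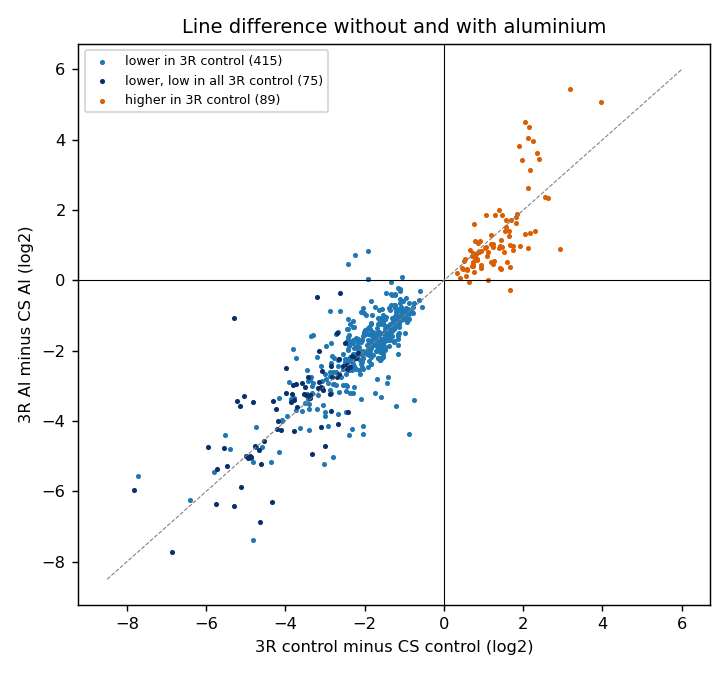
Difference in log2 intensity, 3R minus CS, in control roots (x axis) and in Al-treated roots (y axis) for the 579 probes kept under both scalings. These are the 89 higher, the 415 ordinary lower and the 75 probes near the floor in 3R, and other rows are not shown. Of the lower probes 484 of 490 lie below 0 on the y axis, and of the higher ones 87 of 89 lie above it.

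Whether the difference depended on Al was tested within arrays. It changed in 832 probes after quantile normalisation and in 831 on the deposited values (1.84% of all rows), 487 upward (1.08%) and 344 downward (0.761%). Of the 89 higher probes 12 changed, 5 becoming smaller and 7 larger under Al, and of the 490 lower probes 57 changed, 34 becoming smaller and 23 larger. Of the 75 probes near the floor in 3R, 11 changed. The control values that chose these probes are part of the tested change, which favours a smaller difference under Al. These counts therefore only describe the chosen probes.

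Set against 6R, which shared slides with 3R for all replicates, 3R differed at 555 probes (1.23%), 66 higher (0.146%) and 489 lower (1.08%), at 502 after quantile normalisation and at 556 with slide as a block. With 3R as one side of both comparisons, the values can only be placed side by side. The 89 probes higher in 3R than in CS had a median difference of 0.58 between 3R and 6R and of 0.51 between 6R and CS. The 490 lower ones had a median of -1.68 between 3R and 6R and of -0.32 between 6R and CS. Between 6R and CS 28 probes passed (0.0619%), 8 higher (0.0177%) and 20 lower (0.0442%) in 6R.

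Of the named genes above, hsp16.9A differed between 3R and 6R by -1.13 (adjusted p = 0.021 in limma), LOC542898 by -1.77 (adjusted p = 0.0029), LOC543362 by -2.37 (adjusted p = 0.010), LOC543421 by 1.55 (adjusted p = 6.8e-05) and LOC100136989 by 1.20 (adjusted p = 0.017). For rab (-0.14, adjusted p = 0.97) and LOC100037574 (-0.13, adjusted p = 1.00) the test was not passed. In Al-treated roots hsp16.9A (-1.06, adjusted p = 0.011), LOC542898 (-1.37, adjusted p = 0.0070), LOC543362 (-1.98, adjusted p = 0.012), LOC543421 (0.81, adjusted p = 0.0045) and LOC100037574 (1.80, adjusted p = 0.028) differed between 3R and CS in the same direction. After quantile normalisation hsp16.9A no longer passed there (-0.82, adjusted p = 0.055), and the other 4 did. TaDMAS1 did not pass under Al on the deposited values (0.97, adjusted p = 0.21) or after quantile normalisation (1.28, adjusted p = 0.12). LOC100136989 did not pass on the deposited values (0.69, adjusted p = 0.094) and passed after quantile normalisation (0.98, adjusted p = 0.026).

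The remaining genes with descriptive names missed the threshold, and those with the smallest p are given by the values of their probe of smallest p. On the side of higher levels in 3R these were SH6.2, an adenosylhomocysteinase of the methyl cycle (0.64, adjusted p = 0.052 in limma), IVR1, an invertase that splits sucrose (1.51, 0.12), tubb1, a beta-tubulin (0.52, 0.13), GA20ox1a, a gibberellin 20-oxidase (1.03, 0.17), and la-17 (0.46, 0.18). After quantile normalisation la-17 had an adjusted p of 0.022. Other probes of these genes could go the other way: the 2 probes of GA20ox1a stood at -0.35 and 1.03, and the 3 of IVR1 ranged from -0.22 to 1.51. On the other side were WPEAMT, a phosphoethanolamine methyltransferase of choline synthesis (-1.17, adjusted p = 0.068), PsbP, a protein of the oxygen-evolving complex (-0.79, 0.077), W55c (-0.45, 0.087), the avenin-like seed protein ALPb-7D (-0.59, 0.094) and HGGT, an enzyme of tocotrienol synthesis (-0.29, 0.17).

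Lists of genes by topic covered a part of the named rows, and over all rows 2.87% were called and the median difference was -0.08. A gene named from a list is given by its probe of smallest p. Of 7 probes of 3 metal chelation genes, 1 was higher, that of TaDMAS1, and the median was 0.16. The others of that list were PCS1, phytochelatin synthase (-0.45, adjusted p = 0.42 in limma), and wali1, a metallothionein-like gene known from Al-treated wheat roots (0.44, adjusted p = 0.84). Of 8 probes of 3 chaperones, 1 was lower, that of hsp16.9A, with a median of -0.22 on the deposited values and 0.06 after quantile normalisation. PDI, which forms disulfide bonds, stood at 0.15 (adjusted p = 0.83) and FKBP70, a peptidyl-prolyl isomerase, at -0.40 (adjusted p = 0.79).

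Of 10 probes of 5 dehydrin and LEA genes, 1 was lower, that of rab, with a median of -0.07. The other late-embryogenesis proteins were near the floor, such as Em at 6.13 in 3R and 6.65 in CS (adjusted p = 0.19 in limma) and LEA1 at 6.35 in 3R and 6.84 in CS (adjusted p = 0.25). No organic acid transporter of the ALMT or MATE kind, the main known Al tolerance genes of cereals, was found by name among the rows with a symbol. Of those rows, 716 carry a LOC number alone and could not be checked for such genes.

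No probe passed in the other lists, on the deposited values or after quantile normalisation. For sugar metabolism 0 of 25 probes passed, with a median of -0.18 on the deposited values and 0.08 after quantile normalisation, and for the methyl cycle and methyltransferases 0 of 23, with medians of 0.05 and 0.16. For beta-tubulins and elongation factor 0 of 20 passed, with a median of -0.07, and for splicing and translation factors 0 of 14, also with -0.07. For antioxidants and peroxidases 0 of 12 passed (median -0.12), for defence proteins 0 of 8 (-0.02), and for lipid transfer 0 of 2 (-0.15). In limma without adjustment, 4 of the 25, 5 of the 23, 3 of the 20, 0 of the 14, 2 of the 12, 1 of the 8 and 0 of the 2 had a p under 0.05, and 13.9% of all rows did.

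Of the small lists, the 5 gibberellin oxidase probes had a median of -0.14 on the deposited values and 0.18 after quantile normalisation. The 5 probes of the plasma membrane proton pump ha1 ranged from -1.02 to 1.39, with a median of -0.15. The 5 probes of the beta-glucosidases TaGlu1a and Taglu1b, which release benzoxazinoids from their glucosides, had a median of 0.20 in unstressed roots and of 2.20 in Al-treated roots. The 6 histone probes had a median of 0.05 and the 30 seed protein probes one of 0.00. In limma without adjustment, 1 of the 5 oxidase, 1 of the 5 pump, 0 of the 5 beta-glucosidase, 0 of the 6 histone and 1 of the 30 seed protein probes had a p under 0.05.

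The photosynthesis list had the highest median of the lists, 0.45 on the deposited values and 0.76 after quantile normalisation, with 0 of 33 probes past the threshold and 5 with an unadjusted p under 0.05 in limma. Of the 33 probes, 16 are annotated as rbcL, the chloroplast gene of the large Rubisco subunit. These 16 were above 0 under the 3 scalings, between 0.45 and 1.35 on the deposited values with a median of 0.73, and the lowest adjusted p was 0.24 (0.17 after quantile normalisation). Under Al all 16 were again above 0, from 0.26 to 1.24. The probes of 1 gene share their transcript and are not independent. PsbO, another protein of the oxygen-evolving complex, had a probe at -0.79 (adjusted p = 0.44).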

How the data were processed

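RNA of root apices was hybridised to 9 arrays with 2 dyes, Cy3 and Hyper 5, and each channel was deposited as 1 of 18 samples. The deposited values are log2 intensities made by the authors, and limma is named in the submitters' processing notes. For the background correction and normalisation, no step is stated by the labels or headers. Gene symbols came from the platform annotation (996 rows, 553 symbols, 475 of them present in the RefSeq gene table of assembly GCF_018294505.1), and 44224 rows have none. Older names were taken from the synonyms of that table.

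Levels were fitted with limma 3.58.1 in R 4.3.3 to all 18 samples taken singly, by group and dye, with arrays entered as random blocks (estimated correlation 0.625). The change of the difference with Al was fitted on the within-array ratios. Adjusted p are Benjamini-Hochberg values over 45220 rows with a threshold of 0.05, ± values of differences are standard errors, and the number of arrays limits the precision. On simulated data of the same size, 45 of 100 probes changed by 1 log2 and 84 of 100 changed by 2 log2 were recovered, with 13 false calls. The simulation held normal noise and an array effect. It had no slide effect, no floor, no shared deviation of replicate numbers and no separate scaling of lines. Its false calls therefore do not measure those in the real data. No pair of columns was identical. Where the labels' replicates were not separate cultures, p-values measure the spread between these samples alone.

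Replicate numbers were tested as pairs because same-numbered 3R and CS control samples deviated together (correlations of 0.286, 0.607 and 0.282 for numbers 1, 2 and 3), and they share their dye. Samples of unlike number correlated at -0.506 to 0.370, and 3R replicate 3 with CS replicate 1, at 0.370, exceeded 2 of the same-numbered pairs. The slide of an array was read from the start of its scanner file name in the labels. The named genes are those with a symbol that passed under both scalings without overlap (up to 15 descriptive names and 3 LOC numbers in each direction, 1 probe per gene), the 5 descriptive names of smallest p that did not where fewer than 5 did, the 2 unnamed probes of largest difference in each direction, and up to 4 examples per list. The members and lists were chosen with earlier results of these data known. Other scalings, blocks and left-out samples were tried.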

Additional observations from a re-analysis of the deposited data

Results flagged for a closer look

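For 7 probes, named above or members of the gene lists, the difference between 3R and CS was not the same with and without Al. The test was that of the change within arrays in limma (adjusted over all rows, n = 3 arrays per line). Over all rows 831 probes changed (1.84%), and 129 did without the dye term. The dehydrin rab and probes 11540 and 21650 were chosen by their control difference, which is part of the tested change. The values are the difference under Al minus the difference in control roots. For the dehydrin rab it changed by -3.48 ± 0.15 (adjusted p = 0.00028), and lower values in 3R were measured in both conditions. For the unnamed probe 11540 it changed by 2.25 ± 0.23 (adjusted p = 0.0044), with 3R higher in both conditions. For the unnamed probe 21650 it changed by 2.16 ± 0.30 (adjusted p = 0.015), with 3R near the floor in both conditions. For the beta-glucosidase TaGlu1a the change was 1.94 ± 0.26 (adjusted p = 0.013), with differences of 2.28 under Al and 0.33 in control roots. For Taglu1b the change was 1.79 ± 0.27 (adjusted p = 0.022), with differences of 1.59 under Al and -0.19 in control roots. For the splicing factor subunit U2AF65a the change was -0.82 ± 0.15 (adjusted p = 0.043), with differences of -1.11 under Al and -0.29 in control roots. For WGA1, a wheat germ agglutinin, the change was -1.36 ± 0.24 (adjusted p = 0.035), with differences of -1.63 under Al and -0.27 in control roots.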

How the results depend on the processing

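Between unstressed 3R and CS the main fit called 1297 probes (94 higher, 1203 lower). The counts under other settings are totals, not parts of these 1297. After quantile normalisation 698 (203 and 495) were called, 589 of them also among the 1297 in the same direction. Subtracting medians gave 2512 (1745 and 767), and leaving out the dye term gave 819 (61 and 758). Slide as a fixed block gave 283 (32 and 251), the 6 samples alone 357 (24 and 333), and the replicate block 27 (0 and 27). Quantile normalisation and slide block together gave 212. With rows of a mean under 6.3 left out, 62 were higher. Leaving out 1 control sample gave 799 to 1193 calls, 52 to 89 higher and 747 to 1104 lower. Under Al the 2883 calls became 1835 after quantile normalisation, 4901 after subtracting medians, 1745 without the dye term, 793 with slide as a block, 1216 with the replicate block and 1714 to 2624 with a sample left out. The 555 calls between 3R and 6R became 179 with the 6 samples alone and 0 with the replicate block, whose numbers do not match dyes for 6R (2619 probes had an unadjusted p under 0.05 in that limma fit). The 831 changes with Al became 129 without the dye term and 294 to 808 with 1 array left out.

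The 579 probes kept under both scalings became 172 with the slide block and 527 to 558 with a sample left out. The 75 probes near the floor in 3R became 39 with an upper limit of 9 and 78 to 88 with a sample left out. A left-out sample removes a condition, so it could not lower this count, and a higher upper limit could not raise it. These alternatives for the 579 and the 75 were chosen after seeing the data. The cause of these changes was not tested. Of the 12 probes named as passing, 10 missed the threshold with the replicate block, 7 with the 6 samples alone and 6 with the slide block, and none changed sign.

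Among the named probes, signs turned only where the difference was not called. These were TaGlu1a with the slide block (-0.18), GA20ox1d after quantile normalisation (0.18), and, with medians subtracted, Taglu1b (0.046), GA20ox1d (0.10), Prx1 (0.17), pTTH20 (0.056), pre-FBPase (0.093) and H2A-9 (0.15). With a sample left out EM reached -0.026, TaGlu1a ranged over -0.015 to 0.55, Taglu1b over -0.57 to 0.076, GA20ox1d over -0.41 to 0.33, wali1 over -0.0086 to 0.99, PDI over -0.016 to 0.23, Pur-B1 over -0.033 to 0.16, H2A-9 over -0.28 to 0.075 and H2A-3 over -0.066 to 0.093. The floor of the deposited values limits what can be seen in dim probes, and with 3 samples per group a difference of 1 log2 was often missed on simulated data.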
